A study of Mus musculus with 4 samples.

Results

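Muscle fibres keep a store of triglyceride in lipid droplets and draw on it as fuel. The 10 genes described here cover that store in the tibialis anterior, a fast hind limb muscle of the mouse: 3 droplet coat proteins (Plin2, Plin4 and Plin5), the pair of enzymes that complete triglyceride synthesis (Dgat1 and Dgat2), 3 lipases that break triglyceride down in turn (Pnpla2, Lipe and Mgll), and the protein activator and inhibitor of the first lipase (Abhd5 and G0s2). They were taken by name from the table of each library, 10 of 32868 gene names, and each was held by a single row. All 10 passed the filter on low values, as did 10690 genes in all.

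RNA was sequenced at postnatal day 21 from mice of strain C57BL/6. The Het group (2 libraries) was labelled Nf1flox/+/Myf5+ and the Nf1-KO group (2 libraries) Nf1flox/flox/Myf5+, so the animals of both groups carried a floxed Nf1 allele and the element labelled Myf5+. In crosses of this kind that element is usually a Cre driver, which the labels do not spell out. Myf5 is expressed in muscle precursors and in the precursors of brown fat, and the cells in which Nf1 was recombined cannot be read from these bulk values. Nf1 encodes neurofibromin, which switches off the GTPase Ras. The labels do not say whether the libraries of a group came from separate animals, so p-values measure the spread between these libraries, which may be technical.

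Values were deposited without a named unit and were read as RPKM. These are reads scaled by the length of the gene and by the depth of the library, so levels can be compared between genes. Nf1 itself was 1.09 and 1.01 RPKM in Het and 0.89 and 0.85 RPKM in Nf1-KO (log2 fold change -0.18, limma adjusted p 0.041), a small fall. When each of the 4 libraries was left out the log2 fold change stayed between -0.21 and -0.15, but the call was lost each time (adjusted p 0.062 to 0.18), as it was with no filter (0.071) and without scaling (0.094). With a pseudocount of 0.1 it was -0.33 (adjusted p 0.045), and the authors' deposited table gives Nf1 a log2 fold change of -0.38 (SE 0.11, adjusted p 0.0026). From the steps between low values, the sequencing depth was estimated at 36600000 to 58100000 reads per library, with both Nf1-KO libraries between those of Het. Differences were tested with limma on log2(RPKM + 1) after scaling the libraries, with p-values adjusted over all 10690 genes by Benjamini-Hochberg. A fold on this scale understates the change of genes with low values. The folds of means given below are of values before scaling. Scaling lowered the Nf1-KO values against those of Het, so the log2 fold changes are smaller than these folds.

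The 7 muscle fibre markers examined were between 1004 and 15930 RPKM in every library, and all 7 were called different in limma, 3 higher and 4 lower, with the same directions and calls without scaling. Myh4, the myosin of the fastest fibres, was 6767 and 7015 RPKM in Het and 3508 and 3428 RPKM in Nf1-KO (log2 fold change -1.08, adjusted p 7.3e-07). Mb, the myoglobin of oxidative fibres, was 2933 and 2906 against 5099 and 5135 RPKM (0.71, adjusted p 5.3e-07). Myh1, a fast myosin of more oxidative fibres than Myh4, was 2354 and 2443 against 3712 and 3644 RPKM (0.52, adjusted p 1.0e-05), and Des rose by less (0.17). Acta1 (-0.45), Tnnt3 (-0.29) and Ckm (-0.17) were lower. These shifts separate the same groups as those of the 10 genes below, as any changed gene does in this design. The part of the fibre make-up in the values of the 10 genes was not tested.

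Triglyceride is built by adding fatty acids to a glycerol backbone, and the last fatty acid is added by a diacylglycerol acyltransferase. The product collects in droplets whose surface is covered by perilipins, which control the access of lipases. Breakdown then runs in steps: adipose triglyceride lipase (Pnpla2) removes the first fatty acid, hormone-sensitive lipase (Lipe) the second and monoglyceride lipase (Mgll) the last. In oxidative muscle the released fatty acids feed mitochondria, and several of these genes are known targets of the PPAR family of nuclear receptors.

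Most of the store's genes were higher in the Nf1-KO muscle. Of the 10 genes, 8 rose past an adjusted p of 0.05 in limma, and 24.9% of all genes tested were called higher. None was called lower, and 0 were lower at an unadjusted p under 0.05 either. The background share of genes called lower was 25.4%. Without scaling, 8 of the 10 were still called higher, while the counts over all genes moved from 2661 higher and 2720 lower to 3760 (35.2%) and 1883 (17.6%). Over the 10 genes the log2 fold change had a median of 0.83, beside 0.00041 over all genes tested. The authors' deposited table likewise called 8 of the 10 higher and 0 lower at an adjusted p under 0.05, and called 15.0% of its 13985 genes higher and 16.6% lower. In the values as deposited, both Nf1-KO libraries lay above both Het libraries in 8 of the 10 genes and below them in 0, against 49.8% and 27.4% of all genes tested. These are bulk samples, in which more cells of a type and more RNA per cell cannot be told apart.

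**Figure D1:**
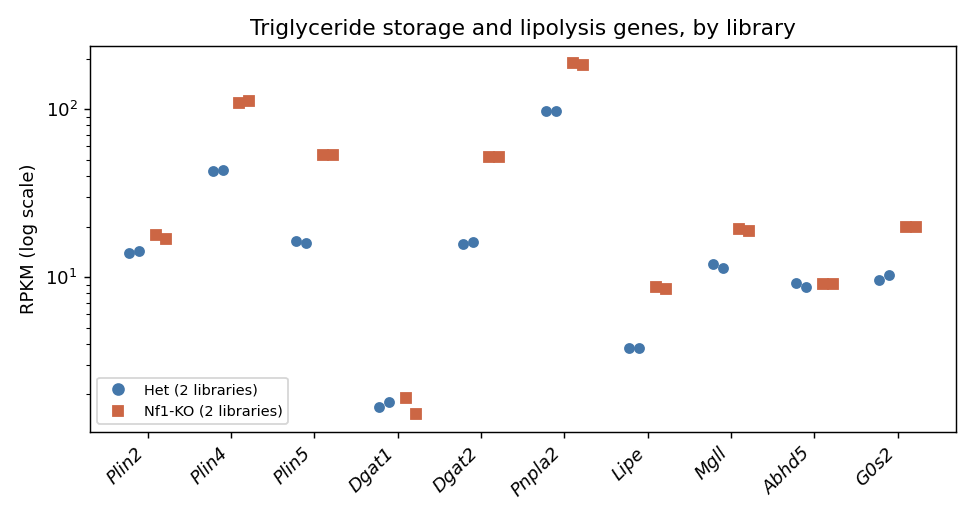
RPKM of the 10 genes on a log axis, with 1 point per library (circles Het, squares Nf1-KO). In 8 genes both squares lie above both circles, while the points of Dgat1 and Abhd5 overlap between the groups.

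Promoter sequences of 4 members are shown, 3 that rose 1.89-fold or more (Plin5, Plin4 and Pnpla2) and 1 coat gene that rose far less (Plin2). Other members that rose as much, such as G0s2 (2.0-fold), are not shown. They come from RefSeq (GRCm38.p6), whose promoter table held 11 start sites of 8 of the 10 genes. The submitters' processing notes name mm9, so these positions are not those of the deposited files. The stretches end at the RefSeq start site or, where it lies further upstream, the GENCODE gene start, and run 5′ to 3′ on the gene's strand. Capitals mark a GC box (GGGCGG on either strand), the site of Sp-family factors. Plin5 is at chr17:56117597-56117798 (minus strand), Plin4 at chr17:56109804-56110032 (minus), Pnpla2 at chr7:141454938-141455187 (plus) and Plin2 at chr4:86670061-86670309 (minus).
Plin5: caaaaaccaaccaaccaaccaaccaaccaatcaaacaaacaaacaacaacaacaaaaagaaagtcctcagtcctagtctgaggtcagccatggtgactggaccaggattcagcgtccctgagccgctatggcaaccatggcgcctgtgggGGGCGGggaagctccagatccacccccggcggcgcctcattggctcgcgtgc
Plin4: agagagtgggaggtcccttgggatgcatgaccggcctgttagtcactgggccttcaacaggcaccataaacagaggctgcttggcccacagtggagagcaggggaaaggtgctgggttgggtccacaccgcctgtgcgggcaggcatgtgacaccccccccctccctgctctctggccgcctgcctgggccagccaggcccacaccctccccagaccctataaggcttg
Pnpla2: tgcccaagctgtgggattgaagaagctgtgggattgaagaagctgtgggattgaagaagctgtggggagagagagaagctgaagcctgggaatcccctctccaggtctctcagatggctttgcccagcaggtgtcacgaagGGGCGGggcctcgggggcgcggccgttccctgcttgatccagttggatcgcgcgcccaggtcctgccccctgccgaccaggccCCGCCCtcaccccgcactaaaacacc
Plin2: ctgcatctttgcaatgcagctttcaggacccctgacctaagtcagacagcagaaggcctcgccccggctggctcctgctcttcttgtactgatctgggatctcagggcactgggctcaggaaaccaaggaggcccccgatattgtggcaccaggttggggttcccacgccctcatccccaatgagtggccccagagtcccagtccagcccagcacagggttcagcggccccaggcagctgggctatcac

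The 4 promoters did not share the motifs searched. In the 250 bases before the start, GC boxes were found in Pnpla2 (2) and Plin5 (1 at the start site shown) and in neither Plin4 nor Plin2. Over the members, 6 of 8 genes had a GC box, in 7 of 11 windows, and so did 32.7% of 32851 promoter windows of the same length. A PPAR response element (AGGNCA repeated in the same direction with 1 base between) was found in 0 of the 11 windows and in 0.338% of all windows. The cAMP response element TGACGTCA was in 0 of 11 windows and 1.55% of all. Over their start sites, Lipe and Mgll each held an E-box (CACGTG, in 6.02% of all windows) and a FoxO site (GTAAACA, in 3.17%). All motifs were searched on both strands, and a match or its absence describes only the letters of these windows.

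The coats rose unequally. Plin5, the perilipin of oxidative tissues that brings droplets to mitochondria (chromosome 17, 56111601 to 56117596, GRCm38), was 16.3 and 15.97 RPKM in Het and 53.42 and 53.6 RPKM in Nf1-KO. The groups were far apart and the replicates close, so that the mean level was 3.32-fold higher. The limma log2 fold change was 1.58 (SE 0.027, 95% interval 1.51 to 1.64, adjusted p 3.8e-07), and only 0.262% of the genes tested had a higher one. The authors' deposited table gives Plin5 a mean normalised count of 3303 and a log2 fold change of 1.62 (SE 0.054).

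Plin4, a long perilipin that coats nascent droplets and is abundant in muscle and white fat, lies next to Plin5. The gene (chromosome 17, 56100591 to 56109803) lies 1797 bases from Plin5 on the same strand, with 0 protein-coding genes between them. It was 42.62 and 43.49 RPKM in Het and 108.13 and 111.8 RPKM in Nf1-KO. Both Nf1-KO libraries were above both Het libraries. The mean was 2.55-fold higher, with a log2 fold change of 1.24 (SE 0.026, adjusted p 7.3e-07). An exon of Plin4 overlaps Hdgfl2 on the opposite strand, and the sources used here do not say if reads were counted by strand. That partner was 10.69 and 11.17 RPKM in Het and 13.32 and 12.79 RPKM in Nf1-KO, well below Plin4 in each library.

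Plin2, the coat protein found in nearly all cell types that store lipid (chromosome 4, 86648386 to 86670060), moved little. Its values were 14 and 14.29 RPKM in Het and 17.83 and 16.93 RPKM in Nf1-KO. The groups did not overlap, and the mean was 1.23-fold higher. Without scaling the log2 fold change was 0.28, and with scaling it was 0.19 (SE 0.038, limma adjusted p 0.0069). This call was the weakest of the 8. Without Het replicate 1 the adjusted p was 0.051 and 7 genes were called, and in the authors' deposited table the adjusted p of Plin2 was 0.049.

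The make-up of the perilipin pool differed between the groups. The 5 perilipin genes together summed to 80.03 and 80.5 RPKM in Het and to 197 and 199 RPKM in Nf1-KO. The share of Plin2 was 17.5% and 17.8% in Het and 9.06% and 8.5% in Nf1-KO, while that of Plin5 was 20.4% and 19.8% against 27.1% and 26.9%. Plin4 kept the majority in each library, from 53.3% to 56.2%. The ratio of Plin2 to Plin5 within a library, which does not depend on scaling, was 0.859 and 0.895 in Het and 0.334 and 0.316 in Nf1-KO. Its log2 difference was -1.43 (exact two-sided permutation p 0.33 and adjusted p 0.33 over the 4 ratios, the smallest that 2 libraries against 2 allow). The pool shares were computed after the values had been seen and were not tested.

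**Figure D2:**
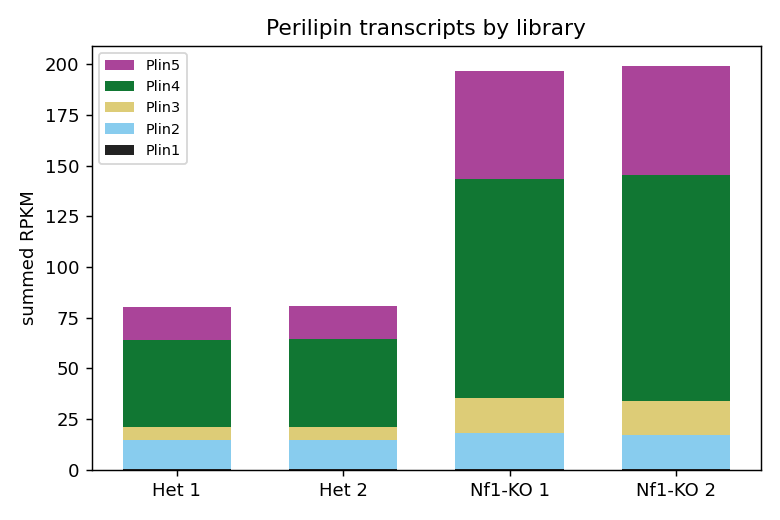
Stacked bars of the RPKM of the 5 perilipin genes in each of the 4 libraries. The bars sum to 80.03 and 80.5 RPKM in Het and to 197 and 199 RPKM in Nf1-KO, and Plin2 takes a smaller share of the taller bars.

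Of the pair Dgat1 and Dgat2, the latter rose and the former missed the threshold. Dgat2, an acyltransferase that works at the endoplasmic reticulum and on the droplet itself (chromosome 7, 99153658 to 99182719), was 15.71 and 16.13 RPKM in Het and 52.12 and 51.86 RPKM in Nf1-KO. Both Nf1-KO libraries lay above both Het libraries by a wide margin. The mean was 3.27-fold higher (log2 fold change 1.56, SE 0.028, adjusted p 4.0e-07), and its log2 fold change ranked 32 among the 10690 genes, counted from the highest. The 95% intervals of Dgat2 (1.49 to 1.62) and Plin5 (1.51 to 1.64) overlapped.

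Dgat1, which carries out the same reaction and is not related to Dgat2 in sequence (chromosome 15, 76502015 to 76511953), was the least abundant of the 10 genes. It was 1.68 and 1.81 RPKM in Het and 1.91 and 1.53 RPKM in Nf1-KO, and the groups overlapped. Its log2 fold change was -0.076 and missed the threshold (adjusted p from limma 0.463, 95% interval -0.27 to 0.12), and without Nf1-KO replicate 2 its sign turned (0.031). The authors' deposited table gives Dgat1 a mean normalised count of 144, the lowest of the 10, and a log2 fold change of -0.13 (SE 0.24).

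Within each library, Dgat2 held most of the signal of the pair. Its share of their summed RPKM was 90.3% and 89.9% in Het and 96.5% and 97.1% in Nf1-KO. The ratio of Dgat1 to Dgat2 was 0.107 and 0.112 in Het and 0.0366 and 0.0295 in Nf1-KO, without overlap. The log2 difference of the ratio was -1.74 (exact two-sided permutation p 0.33, the floor of the design).

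Each of the 3 lipases rose. Pnpla2, the adipose triglyceride lipase that takes the first step of breakdown (chromosome 7, 141455198 to 141460743), was the most abundant of the 10 genes in both groups. It was 98.1 and 97.46 RPKM in Het and 187.06 and 182.8 RPKM in Nf1-KO. Every Nf1-KO value was above every Het value, by 1.89-fold in the means (log2 fold change 0.82, SE 0.022, adjusted p 1.6e-06). In the authors' deposited table its mean normalised count was 18022, second among the 10 genes to that of Plin4 (20561).

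Lipe, the hormone-sensitive lipase that acts mainly on diacylglycerol (chromosome 7, 25379527 to 25398710), was 3.76 and 3.8 RPKM in Het and 8.77 and 8.45 RPKM in Nf1-KO. It was the lowest of the 3 lipases and rose the most of them by fold, 2.28-fold in the means (log2 fold change 0.93, SE 0.043, adjusted p 1.4e-05). With a pseudocount of 0.1 in place of 1 its log2 fold change was 1.07, and the authors' deposited table gives 1.08 (SE 0.086). The ratio of Pnpla2 to Lipe was 26.1 and 25.6 in Het and 21.3 and 21.6 in Nf1-KO, with no overlap (log2 difference -0.27, exact two-sided permutation p 0.33).

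Mgll, which splits monoacylglycerol and so completes the release of fatty acids (chromosome 6, 88724412 to 88828360), was 11.91 and 11.37 RPKM in Het and 19.32 and 18.93 RPKM in Nf1-KO. The groups were apart, with a mean 1.64-fold higher (log2 fold change 0.58, SE 0.036, adjusted p 4.7e-05). Exons of Lipe and Mgll overlap other genes on the opposite strand (4732471J01Rik and Gm26588), so reads of those genes may be among theirs. On the log2 scale each lipase rose by less than Plin5, Plin4 and Dgat2.

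The inhibitor of Pnpla2 rose, while its activator missed the threshold. Abhd5, the co-activator that perilipins hold and release (chromosome 9, 122351608 to 122381524), was 9.24 and 8.76 RPKM in Het and 9.09 and 9.14 RPKM in Nf1-KO. The Nf1-KO values lay inside the range of the Het values. Its log2 fold change was -0.068 and missed the threshold (adjusted p from limma 0.206), and the 95% interval ran from -0.17 to 0.029. With unscaled values the sign turned (0.017), so no direction can be given. An exon of Abhd5 overlaps A730085K08Rik on the opposite strand, so reads of that gene may be among those of Abhd5.

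G0s2, a small protein that binds Pnpla2 and blocks it (chromosome 1, 193272161 to 193273217), was 9.57 and 10.28 RPKM in Het and 19.78 and 19.85 RPKM in Nf1-KO. The groups did not overlap, and the mean was 2.0-fold higher (log2 fold change 0.84, SE 0.041, adjusted p 1.7e-05). The lipase and its inhibitor both rose, and the 95% intervals of their log2 fold changes overlapped (0.77 to 0.87 for Pnpla2 and 0.74 to 0.94 for G0s2). The ratio of Pnpla2 to G0s2 was 10.3 and 9.48 in Het and 9.46 and 9.21 in Nf1-KO, a log2 difference of -0.079 (exact two-sided permutation p 0.33), which ran from -0.14 to -0.023 when each library was left out. In contrast, the ratio of Pnpla2 to Abhd5, chosen after the values were seen and not tested, was 10.6 and 11.1 in Het and 20.6 and 20 in Nf1-KO.

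**Figure D3:**
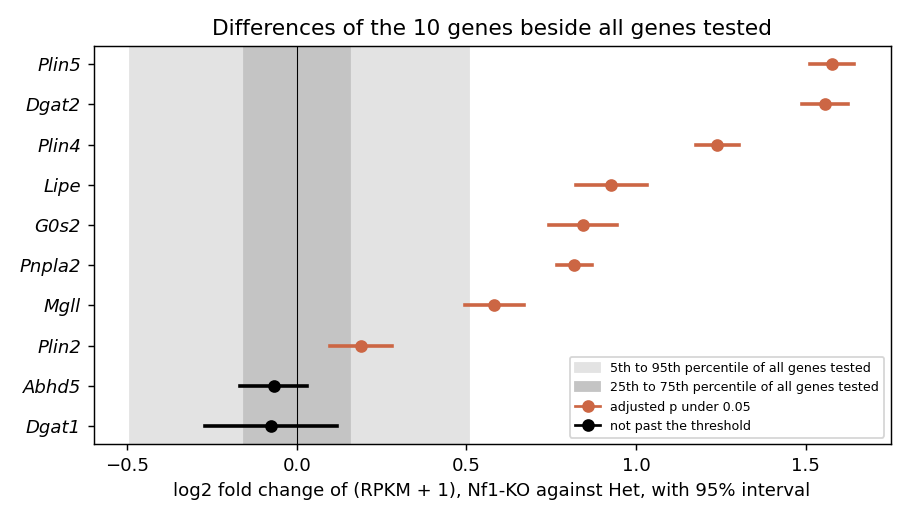
Log2 fold change of (RPKM + 1) in Nf1-KO against Het for each of the 10 genes with its 95% interval (not adjusted for multiple tests), over bands that hold the 5th to 95th and 25th to 75th percentiles of all genes tested. Plin5 (1.58), Dgat2 (1.56) and Plin4 (1.24) lie furthest to the right, 7 genes lie beyond the 95th percentile (0.51), and Plin2 (0.19) lies within the wider band.

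The order of levels was mostly the same in both groups. In Het it ran from Pnpla2 (97.8 RPKM) through Plin4, Plin5, Dgat2, Plin2, Mgll, G0s2, Abhd5 and Lipe to Dgat1 (1.75 RPKM), and the neighbours whose replicate values overlapped were Plin5 and Dgat2. In Nf1-KO no neighbours overlapped, and G0s2 and Mgll stood above Plin2. The highest mean was 56.0 times the lowest in Het and 108 times in Nf1-KO. Replicates of the members differed by a coefficient of variation of 0.238% (Plin5 in Nf1-KO) to 5.27% (Dgat1 in Het), apart from Dgat1 in Nf1-KO at 15.6%.

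The rest of the pathway was read from 5 lists, which were drawn up with earlier results of these data known. Other droplet coat and formation genes showed no common direction: of 15 genes 12 were tested, of which 3 rose, 4 fell and 5 did not pass the limma threshold, with a median log2 fold change of 0.011. These counts, and those of the lists that follow, stand beside 24.9% of all genes tested called higher and 25.4% called lower, or 35.2% and 17.6% without scaling. Plin3, a perilipin that moves from the cytosol to new droplets, was 6.7 and 6.42 RPKM in Het and 17.17 and 16.42 RPKM in Nf1-KO (log2 fold change 1.15, adjusted p 4.6e-06). Cidea, a droplet fusion protein of brown fat, was 0.75 and 1.02 against 2.01 and 2.52 RPKM (0.74, adjusted p 0.0014). Acsl3, an acyl-CoA synthetase of growing droplets, was 4.56 and 4.01 against 1.87 and 2.04 RPKM and fell by 0.91 on the log2 scale (adjusted p 1.0e-04). Without scaling 5 were higher and 3 lower.

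Of 15 further genes of glycerolipid synthesis 12 were tested, of which 6 rose, 4 fell and 2 did not pass (median log2 fold change 0.13), beside 24.9% and 25.4% of all genes. Agpat2, which makes phosphatidic acid, was 2.51 and 2.97 RPKM in Het and 7.69 and 7.93 RPKM in Nf1-KO (log2 fold change 1.16, limma adjusted p 3.6e-05). Its relative Agpat3 was 28.47 and 27.87 against 41.28 and 42.2 RPKM (0.46, adjusted p 3.8e-05). Gpd1, which makes glycerol 3-phosphate in the cytosol, was 202.11 and 199.73 against 119.3 and 117.83 RPKM and fell by 0.85 (adjusted p 1.0e-06). Without scaling 7 were higher and 3 lower, and Lpin1, called lower here, was not.

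Other lipases and glycerol efflux made up a list of 12 genes. Of 11 tested, 2 rose, 5 fell and 4 did not pass (median log2 fold change -0.053), beside 24.9% and 25.4% of all genes. Dagla, a diacylglycerol lipase, was 2.24 and 2.43 RPKM in Het and 1.52 and 1.53 RPKM in Nf1-KO (log2 fold change -0.46, limma adjusted p 8.7e-04). Ces1d, a carboxylesterase, was 10.08 and 8.29 against 7.33 and 7.91 RPKM (-0.32, adjusted p 0.021). It lost its call without Het replicate 1 (0.068) or Nf1-KO replicate 1 (0.073), without scaling (-0.24, adjusted p 0.062) and with no filter (0.10). Pnpla8, a phospholipase of mitochondria and peroxisomes, was 31.49 and 31.46 against 26.67 and 26.94 RPKM (-0.32, adjusted p 1.6e-04). The counts of this list moved with the libraries: 1 higher and 3 lower without Het replicate 1, 1 higher without Het replicate 2, and 3 lower without Nf1-KO replicate 1. Without scaling 3 were higher and 2 lower.

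In the list of hormonal control of lipolysis, 10 of 15 genes were tested, of which 1 rose (Prkaca), 4 fell and 5 did not pass, beside 24.9% and 25.4% of all genes. Irs1, an adaptor of the insulin receptor, was 8.5 and 8.19 RPKM in Het and 5.17 and 5.04 RPKM in Nf1-KO (log2 fold change -0.70, limma adjusted p 4.3e-05). Prkacb and Prkar2a, a catalytic and a regulatory subunit of protein kinase A, fell by 0.38 and 0.28 on the log2 scale (adjusted p 3.1e-04 and 1.4e-04). Gnas, the stimulatory G protein subunit, is among the 4 called lower, but its log2 fold change was 0.020 without scaling, where 4 genes of the list were higher and 3 lower. Prkaca and Gnas were named after their values were seen.

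Of the 8 PPAR regulators, all of which were tested, 2 rose, 3 fell and 3 did not pass, beside 24.9% and 25.4% of all genes. Ppara was 3.71 and 3.97 RPKM in Het and 8.73 and 8.57 RPKM in Nf1-KO (log2 fold change 0.92, limma adjusted p 2.1e-05), and the coactivator Ppargc1a was 5.82 and 6.08 against 8.46 and 8.56 RPKM (0.37, adjusted p 5.8e-04). Rxrg, a retinoid X receptor that pairs with PPARs, was 19.28 and 19.83 against 14.22 and 13.96 RPKM (-0.53, adjusted p 4.5e-05). Without scaling 4 were higher and 2 lower.

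**Figure D4:**
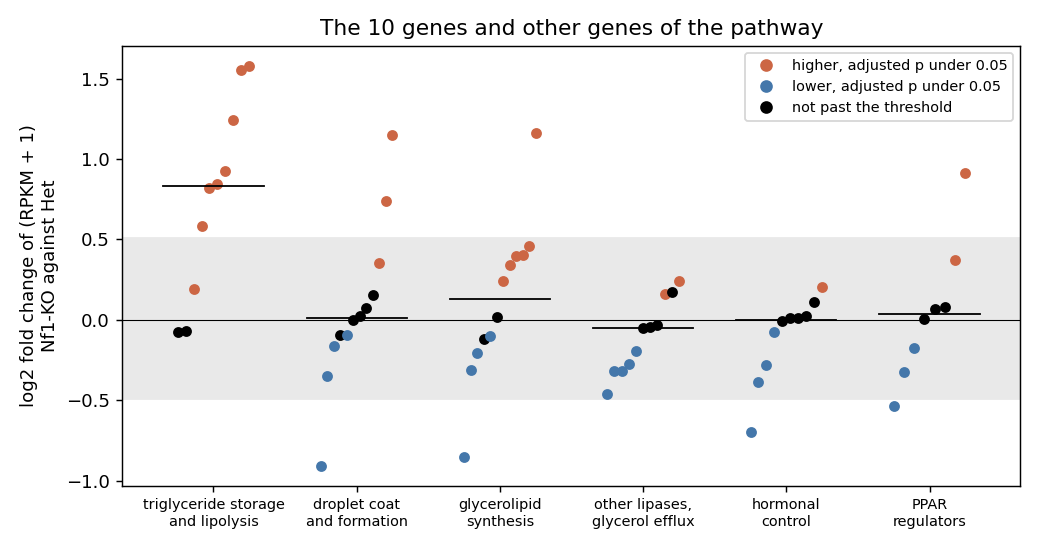
Log2 fold change of (RPKM + 1) in Nf1-KO against Het for the 10 genes and for each tested gene of 5 further lists, with the list's median as a line and the 5th to 95th percentile of all genes tested as a band. The 10 genes have a median of 0.83, while the other lists have medians between -0.053 and 0.13 and hold genes of both directions.

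Several of these genes are also expressed in fat cells and macrophages, so the markers of those cells were read beside them. Of 8 white adipocyte markers 5 were tested, of which 4 were called higher in limma (Fabp4, Cfd, Adig and Cidec) and Adipoq missed the threshold. Fabp4, which endothelial cells also express, was 170.6 and 176.29 RPKM in Het and 249.39 and 246.76 RPKM in Nf1-KO, above each of the 10 genes in all 4 libraries. Cfd was 5.87 and 6.8 against 17.34 and 17.71 RPKM, Adig 2.34 and 2.15 against 4.07 and 4.36 RPKM, and Cidec 0.52 and 0.51 against 0.95 and 1.03 RPKM. Adipoq was 1.11 and 1.31 RPKM in Het and 0.95 and 1.05 RPKM in Nf1-KO (adjusted p 0.057). Of the 3 markers below the filter, Retn was 0.17 and 0.29 against 0.40 and 0.41 RPKM, Plin1 0.41 and 0.34 against 0.35 in both Nf1-KO libraries, and Lep 0.21 and 0.22 against 0.03 and 0.05 RPKM. The markers of the list did not move alike. Their summed level was 181 and 188 RPKM in Het and 273 and 272 RPKM in Nf1-KO, and without Fabp4 it was 10.6 and 11.6 against 24.09 and 24.96 RPKM.

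Among 5 brown adipocyte markers Ucp1 and Cpn2 were listed at 0 in all 4 libraries, and the summed level of the list was 1.34 and 1.57 RPKM in Het and 2.70 and 3.13 RPKM in Nf1-KO, mostly from Cidea. Macrophage markers summed to 10.04 and 10.16 RPKM in Het and to 29.4 and 29.5 RPKM in Nf1-KO. Lyz2 made up most of this (7.47 and 7.38 against 24.35 and 24.62 RPKM), and the other 7 markers summed to 2.57 and 2.78 against 5.03 and 4.87 RPKM. Of 8 markers 4 were tested, with 3 called higher (Lyz2, Cd68 and Csf1r), and Adgre1 was listed at 0 in each library. Of all named rows 44.7% were at 0 in every library, so a listed 0 need not mean that the transcript was absent. The part of adipocyte and macrophage transcripts in the values of the 10 genes was not tested. Endothelial markers summed to 78.5 and 79.0 RPKM in Het and to 84.5 and 83.3 RPKM in Nf1-KO, with 2 called higher and 2 lower of 6.

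**Figure D5:**
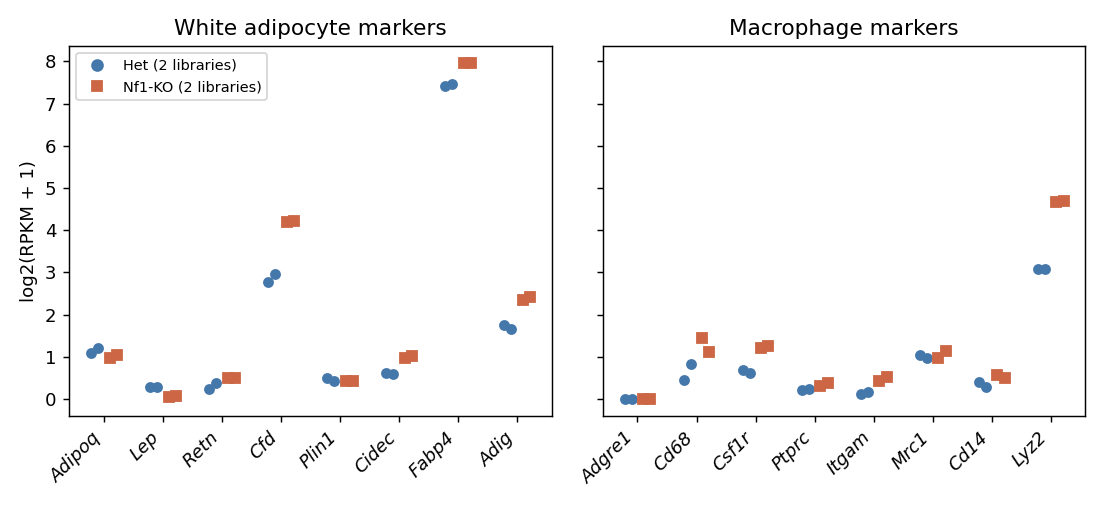
Levels of white adipocyte and macrophage markers in each library as log2(RPKM + 1), with circles for Het and squares for Nf1-KO. The white adipocyte markers Cfd, Fabp4, Adig, Cidec and Retn are higher in both Nf1-KO libraries than in both Het libraries. So are the macrophage markers Lyz2, Cd68, Csf1r, Ptprc, Itgam and Cd14. Of these, Retn, Ptprc, Itgam and Cd14 stay below 0.5 RPKM in every library. Adipoq, Plin1, Lep, Mrc1 and Adgre1 are not higher in this way.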

How the data were processed

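RNA-seq of 4 muscle libraries gave 1 table each, with 1 value per gene for 34682 rows. The authors deposited these values without a named unit; they were read as RPKM, since they summed to between 532146 and 546969 per library, and over 4554 genes the count per RPKM rose with transcript length (log-log slope 0.953). The submitters' processing notes name STAR 2.4.2a, DESeq2 and build mm9. The counting program, annotation and strandedness are not given in the sources used here.

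The authors' deposited comparison table (13985 genes) has columns named as in DESeq2 output. Its signal column is the mean normalised count, per the file headers. It also gives a log2 fold change, a test score and a p-value with its adjusted p-value, per the file headers.

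Rows named by a number (33) were left out, and of 1781 further copies the row with the highest mean per name was kept. The test was limma 3.58.1 (R 4.3.3) with a variance trend, on log2(RPKM + 1) of genes that reached 0.5 RPKM in 2 or more libraries. Library factors came from a trimmed mean of log ratios without weights (0.968, 0.967, 1.03 and 1.03). Levels and folds in the text are of RPKM as deposited. In simulated libraries of 9859 genes with an assumed replicate noise, 100 genes were changed 1.5-fold and 100 were changed 0.5-fold. Of each set 99% were called, and 7.04% of calls were false. Far more genes were called in the real libraries, whose noise may differ, so these rates need not hold for them. Positions are from GENCODE M21 (GRCm38). Alternatives changed the pseudocount, filter, scaling, variance trend, block or gene copies, or left out a library.

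The members and lists were chosen with earlier results of these data known. Named genes were the 10 members, Nf1 and, per list, the 3 called genes with the largest absolute log2 fold change. No batch is given in the labels, so no values within batches could be computed. Blood markers were at most 1.77 RPKM in any library (Alas2). The globin Hbb-b1 was listed at 0 in each library and Hba-a1 at 0.05 RPKM or less, both below Alas2. Of the named rows 44.7% were at 0 in every library, so these values need not show the level of globin transcripts. The share of blood was not tested.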

Additional observations from a re-analysis of the deposited data

How the results depend on the processing

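Over 12 alternative settings, 459 of 486 values stayed on the same side of the threshold and of 0. Counts had to stay within 1.5 times, and the median of the 10 genes within their median residual SD. The ratios within libraries are among the 486 values, and their p could not cross the threshold in any setting. Each of the 10 genes was held by a single row, so summing gene copies could not change their own values or ratios. The 7 rising genes other than Plin2 were called higher in each of the 12 settings. Without each library in turn, 7 to 8 of the 10 genes were called higher, Plin2 ran from 0.16 to 0.24 on the log2 scale, and Dgat1 from -0.17 to 0.031. With unscaled values, Abhd5 was 0.017 and the median of the 10 genes 0.92, and 5 droplet, 4 hormonal and 4 PPAR genes were higher and 2 lipolysis genes lower; the median of all genes tested then was 0.070. With no filter 1 lipolysis gene was higher and 3 lower. With at least 1 RPKM in every library 1 droplet and 3 synthesis genes were higher, since fewer genes were tested. Leaving out each library gave 1 to 2 lipolysis genes higher and 3 to 5 lower. Where no cause is named, it was not tested.

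With the replicate number as a block, 8 of the 10 genes were called higher and their median was 0.83, while Nf1 was not called (-0.18, adjusted p 0.054). Over genes, the difference between the 2 Het libraries did not follow that between the 2 Nf1-KO libraries (correlation -0.018). Such a comparison of 2 libraries a group cannot decide whether the numbers pair the libraries. With 2 libraries a group, the ratios within libraries cannot reach an exact p below 0.33, and the low level of Dgat1 limits what could be seen there.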
